A study of Mus musculus with 6 samples.

Results

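The genes described here are 10 genes of the unfolded protein response and of protein folding in the endoplasmic reticulum (ER), chosen by symbol from 12393 genes on the arrays. They are the sensors Atf6 and Ern1, the transcription factor Xbp1, and 7 ER chaperones and quality control genes: Hspa5, Hsp90b1, Calr, Pdia4, Dnajc3, Herpud1 and Edem1. All 10 were found, on 26 of the 22690 probe sets (a probe set is the group of short probes on the chip that measures 1 transcript).

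The data were from brains of Swiss albino mouse embryos at stage E11.5, 1 brain per Affymetrix array, with 3 arrays per group. The control brains came from normal mothers. The diabetic group held malformed brains from mothers made diabetic with streptozotocin, which destroys the insulin-producing beta cells, so the effect of the mother's diabetes cannot be told apart from that of the malformation. Control and diabetic replicates 1 and 2 lay in a first value table (the MOE430A chip) and replicate 3 of each group in a second (the Mouse430A_2 chip). Signals are given in the order of replicates 1, 2 and 3. Whether brains shared a litter is not stated, and p-values measure only the spread between these brains. In whole brains, fewer cells of a type and less RNA per cell cannot be told apart.

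The unfolded protein response is the reaction of a cell to unfolded proteins in the ER. The chaperone BiP, made from Hspa5, holds the sensors inactive and leaves them when unfolded proteins bind it. Ern1 encodes IRE1 alpha, which splices the Xbp1 transcript so that an active factor is made, and ATF6 is cut in the Golgi to release a transcription factor. Both arms raise transcripts of chaperones and of the machinery that removes misfolded proteins. The response is active in secretory cells, and in developing brain it has been studied in newborn neurons and as a part of diabetic embryopathy. The arrays report the amount of Xbp1 transcript, and its splice form was not measured.

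ATF6 and XBP1 act through short promoter motifs, and the sites found in front of the chaperone genes are shown because these factors are known to act through such sites. The RefSeq promoter table (GRCm38.p6) held 9 of the 10 genes. The 250 bases before each gene start were searched on both strands for 3 motifs: the ER stress element (CCAAT, 9 free bases, CCACG), its second form (ATTGG, 1 free base, CCACG), and the XBP1 element TGACGTGG. The sites below run 5′ to 3′ on the strand on which the motif reads, with the fixed letters of the motif in capitals and coordinates for all bases printed. The distances in the names are from the gene start to the far end of the motif.
Hspa5, 65 bases before the start, gene strand, chr2:34772013-34772055: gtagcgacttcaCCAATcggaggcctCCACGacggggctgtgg
Hsp90b1, 212 bases before the start, gene strand, chr10:86705626-86705668: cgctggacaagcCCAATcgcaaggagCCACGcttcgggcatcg
Hsp90b1, 107 bases before the start, opposite strand, chr10:86705521-86705563: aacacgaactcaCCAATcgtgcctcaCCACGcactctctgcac
Calr, 162 bases before the start, opposite strand, chr8:84847063-84847105: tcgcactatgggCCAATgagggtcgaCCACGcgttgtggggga
Dnajc3, 105 bases before the start, gene strand, chr14:118937815-118937857: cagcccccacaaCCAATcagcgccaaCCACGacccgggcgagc
Herpud1, 52 bases before the start, gene strand, chr8:94386365-94386399: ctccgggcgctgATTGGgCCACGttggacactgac

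The ER stress element stood in the windows of 4 chaperone genes and the second form in that of Herpud1, and 0 of these sites overlapped another motif. The element is rare: it was found in 0.113% of 32851 promoter windows, the second form in 0.0304% and the XBP1 element in 0.563%. No match was found in the windows of Xbp1, Ern1, Pdia4 and Edem1, which says only that these letters are not in these windows. A match describes the sequence and does not show binding.

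Diabetic and control arrays were compared within each table on log2(signal + 32) with limma, over the 8627 genes whose signal averaged 100 or more. Folds of weakly detected genes are understated on this scale. Of the 10 genes, 9 were tested. Ern1 had a mean signal of 79.0 and was left out. None of the 9 passed at an adjusted p of 0.05 in limma (0 of 8627 genes, 0% of all tested, did), the smallest adjusted p among them being 0.652. At an unadjusted p under 0.05 limma counted 1 of the 9, Dnajc3, against 7.64% of all genes. All changes below are therefore given as values that did not pass the test.

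Of the sensors, Atf6 had a change near 0 and Ern1 was too weakly detected to be tested. Atf6, the Golgi-cleaved sensor, has 1 probe set here. Its signals were 232, 221 and 155 in control brains and 245, 223 and 160 in diabetic brains. The groups overlapped in the first table, and the second table gave lower values in both groups. Its log2 change was 0.04 ± 0.15 (SE, n = 3 per group), with 0.04 in each table.

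Ern1, the kinase and RNase that splices Xbp1, gave signals of 105, 112 and 45.7 in control brains and 92.8, 60.9 and 57.6 in diabetic brains. Diabetic signals lay below both controls in the first table and above the control in the second, with log2 changes of -0.39 and 0.20. Its other probe sets had mean signals of 72.6 and 4.64, and changes of 0.26 and -0.05. At such low signals these values depend on how background was removed and on the pseudocount.

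Xbp1, the factor made active by that splicing, had the lowest change of the 10 genes. The signals of its probe set of highest mean signal, 1420886_a_at, were 4145, 2424 and 2024 in control brains and 2389, 1182 and 1938 in diabetic brains. Every diabetic array lay below the controls of its table, which held for 10.6% of all genes tested. The margin was small for replicate 1 against control replicate 2 and for replicate 3, while control replicate 1 was the highest array and diabetic replicate 2 the lowest. The diabetic over control ratio of mean signal was 0.544 in the first table against 0.957 in the second. The log2 change over both tables was -0.62 ± 0.31 (SE, n = 3 per group), with an adjusted p of 0.661 in limma. It was -0.26 without diabetic replicate 2 and -0.32 without control replicate 1. Without both of these arrays, a choice made after seeing the data, it was -0.04.

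**Figure D1:**
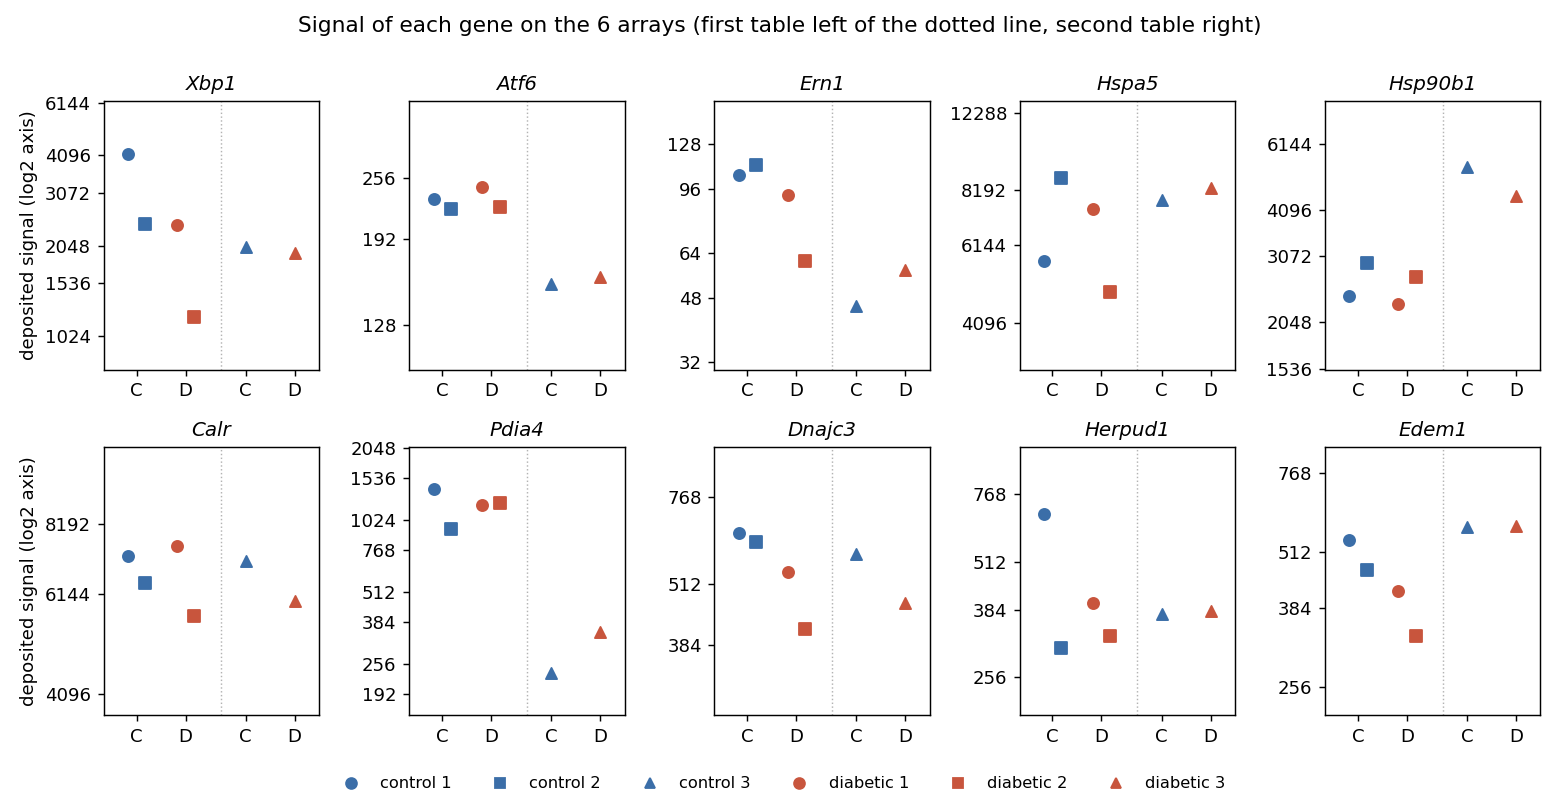
Deposited signal (log2 axis) of each of the 10 genes on the 6 arrays, with control arrays (C) in blue and diabetic arrays (D) in red, the replicate given by the marker shape, and the tables on either side of the dotted line. Xbp1 and Dnajc3 are the tested genes with every diabetic array below the controls of its table, and the Xbp1 signal of 4145 on control replicate 1 stands well above the others.

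The 4 probe sets of Xbp1 all had changes below 0, and they differed in size and in which arrays carried the change. In a limma fit over 13754 probe sets, 0 probe sets passed at an adjusted p of 0.05 (0% of all). Probe set 1437223_s_at gave 2748, 2442 and 1949 in control brains and 2479, 1073 and 2106 in diabetic brains. On it diabetic replicate 2 alone lay below the controls of its table, and the change of -0.40 ± 0.30 (SE, n = 3 per group) became 0.01 without that array.

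Probe set 1420011_s_at, designed on an expressed sequence tag, gave 971, 896 and 650 in control brains and 325, 298 and 682 in diabetic brains. Here both diabetic arrays of the first table were low, and the second table showed the diabetic array slightly above its control. Its change was -0.97 ± 0.29 (SE, n = 3 per group), with -1.49 in the first table against 0.07 in the second. The unadjusted p was 0.008 and the adjusted p 0.607 in limma, and without diabetic replicate 2 the change was -0.79. Among the 21 tested probe sets of the 10 genes it was the only one with an unadjusted p under 0.05 in this fit, against 7.36% of all probe sets tested.

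The fourth, 1420012_at, made on the same tag, gave 251, 330 and 133 in control brains and 308, 197 and 104 in diabetic brains. The groups overlapped there in the first table, and its change was -0.23 ± 0.20 (SE, n = 3 per group). The probe sets thus shared the low value on diabetic replicate 2. They did not share the value of diabetic replicate 1, which was near or within the controls on 3 of them and low on 1420011_s_at.

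**Figure D2:**
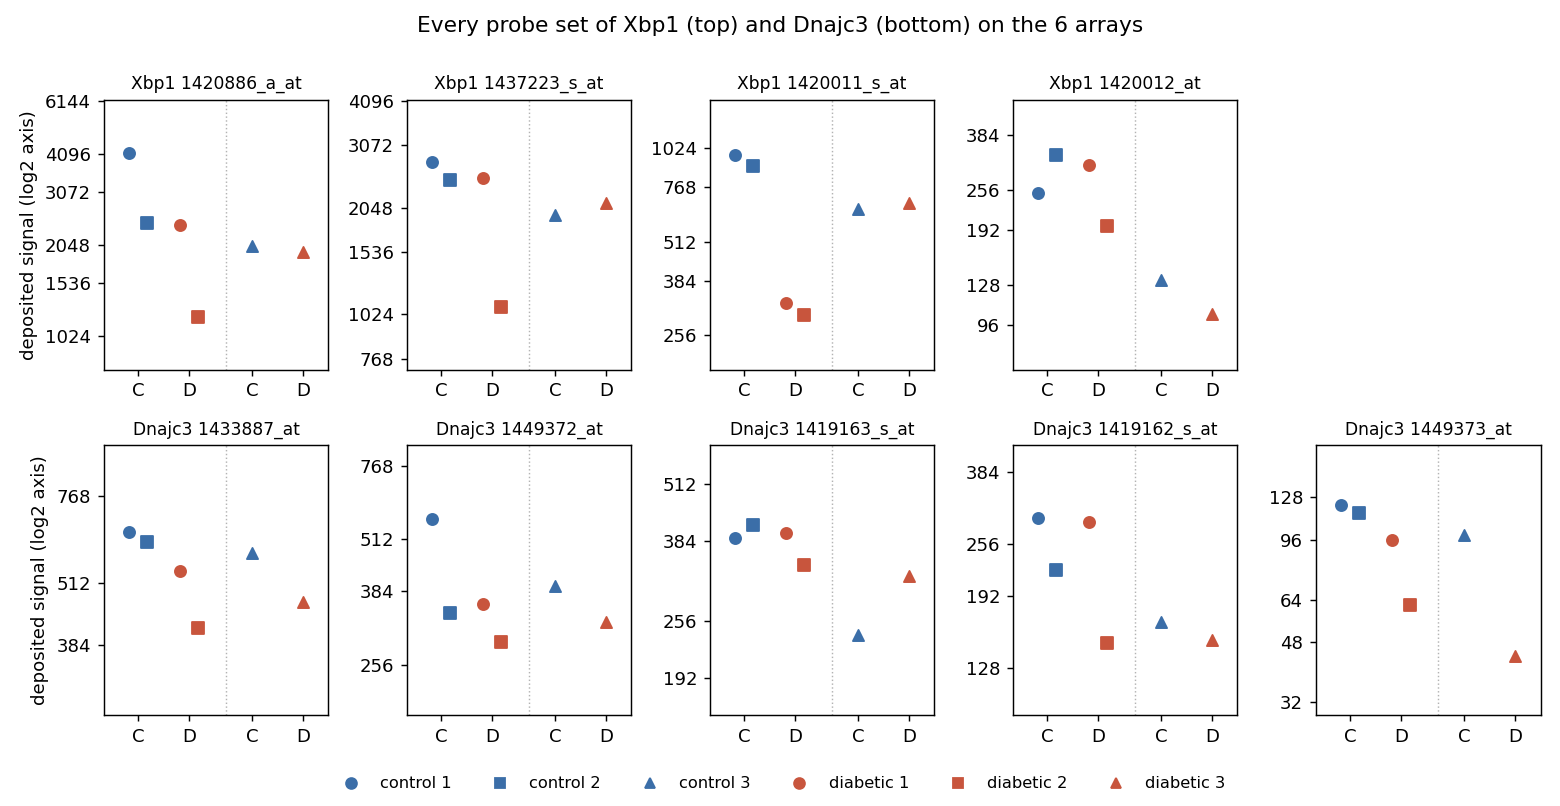
Deposited signal (log2 axis) of all 4 probe sets of Xbp1 and all 5 of Dnajc3 on the 6 arrays, with control arrays (C) in blue, diabetic arrays (D) in red and the tables on either side of the dotted line. On 1420011_s_at both diabetic arrays of the first table lie at 298 and 325, below controls at 896 and 971, which the other Xbp1 probe sets show for diabetic replicate 2 only or with a small margin.

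Among the chaperones of the ER lumen, Hspa5, Hsp90b1 and Calr had small changes below 0, and Pdia4 had a small change above 0. Hspa5 encodes BiP, the Hsp70 of the ER. Its signals were 5665, 8719 and 7800 in control brains and 7446, 4796 and 8283 in diabetic brains. Diabetic replicate 2 was the lowest array, and diabetic replicate 1 lay between its controls. The log2 change was -0.13 ± 0.23 (SE, n = 3 per group), and it was 0.08 when either diabetic replicate 2 or control replicate 2 was left out. The other Hspa5 probe set had -0.26 ± 0.20.

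Hsp90b1 encodes GRP94, the Hsp90 of the ER. It gave 2399, 2944 and 5336 in control brains and 2287, 2708 and 4448 in diabetic brains. The groups overlapped in the first table, and diabetic replicate 2, low for most of the genes, was between its controls here. For Hsp90b1 the log2 change was -0.15 ± 0.16 (SE, n = 3 per group), and the second probe set had -0.04 ± 0.16.

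Calr encodes calreticulin, a calcium-binding chaperone of glycoproteins. Its signals were 7194, 6426 and 7045 in control brains and 7492, 5622 and 5983 in diabetic brains. Diabetic replicate 1 lay above both controls of its table, and the other two diabetic arrays lay below the controls of theirs. For Calr the change was -0.12 ± 0.17 (SE, n = 3 per group), with -0.33 ± 0.24 and -0.14 ± 0.22 for its other probe sets.

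Pdia4, a protein disulfide isomerase of the ER, was the only chaperone gene with a change above 0. Signals were 1380, 935 and 234 in control brains and 1185, 1206 and 348 in diabetic brains. Both diabetic arrays of the first table lay between the controls, and the second table had the diabetic array above the control. Its log2 change was 0.22 ± 0.19 (SE, n = 3 per group), with 0.07 in the first table against 0.52 in the second. Its other probe set had a mean signal of 69.3.

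Dnajc3 encodes P58IPK, a co-chaperone of BiP that also restrains the stress kinase PERK. Its probe set of highest mean signal, 1433887_at, gave 649, 622 and 590 in control brains and 541, 415 and 469 in diabetic brains. Every diabetic array lay below the controls of its table, which held for 10.6% of all genes tested. The diabetic over control ratio of mean signal was 0.752 in the first table against 0.795 in the second. The log2 change was -0.37 ± 0.16 (SE, n = 3 per group), with an unadjusted p of 0.046 and an adjusted p of 0.652 in limma. In the fit over probe sets its unadjusted p was 0.054. Under array weights, with no table block, with no filter on low signal, without control replicate 2, without diabetic replicate 2, and without both control replicate 1 and diabetic replicate 2, 0 of the 10 genes had an unadjusted p under 0.05 in limma. With the replicate number as a block, or with all probe sets averaged, the 1 gene under 0.05 in limma was Xbp1, not Dnajc3. The same held in the first table alone, which is also the fit without replicate 3 of either group. Without control replicate 1 it was Pdia4. As single arrays were left out the log2 change of Dnajc3 ran from -0.46 to -0.26, the latter without diabetic replicate 2.

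The 5 probe sets of Dnajc3 gave 4 changes below 0 and 1 above. Probe set 1449372_at had -0.37 ± 0.21 (SE, n = 3 per group), from 573, 341 and 396 in control brains and 358, 290 and 323 in diabetic brains, where diabetic replicate 1 lay between the controls. Probe set 1419162_s_at had -0.22 ± 0.23 and 0.04 without diabetic replicate 2. Probe set 1419163_s_at had 0.05 ± 0.18, from 389, 416 and 239 in control brains and 401, 341 and 321 in diabetic brains. The last, 1449373_at, with a mean signal of 89.5, was not tested. It gave 121, 115 and 99.4 in control brains and 95.9, 61.8 and 43.8 in diabetic brains, each below the controls of its table, a change of -0.57. Over the tested probe sets of all 10 genes, 2 of 21 had every diabetic array below the controls of its table, against 10.9% of all probe sets tested.

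Herpud1 and Edem1, of ER-associated degradation, had changes below 0 in the first table and, on their probe sets of highest mean signal, near 0 in the second. Herpud1, a membrane protein of the degradation complex, gave 682, 305 and 375 in control brains and 400, 328 and 382 in diabetic brains. Control replicate 1 was the highest array, and the diabetic arrays of the first table lay between the controls. The log2 change was -0.20 ± 0.26 (SE, n = 3 per group), and 0.14 without control replicate 1. The other Herpud1 probe set had -0.21 ± 0.24, with -0.38 and 0.12 in the tables. Edem1, which draws misfolded glycoproteins out of the folding cycle, gave 544, 467 and 581 in control brains and 419, 332 and 585 in diabetic brains. Its diabetic arrays lay below both controls in the first table and level with the control in the second. The log2 change was -0.27 ± 0.17 (SE, n = 3 per group), with -0.40 and 0.01 in the tables. The other Edem1 probe set gave 513, 301 and 306 in control brains and 303, 305 and 389 in diabetic brains. There the diabetic arrays lay between the controls in the first table and above the control in the second. Its change was -0.12 ± 0.23, with -0.34 and 0.32 in the tables.

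**Figure D3:**
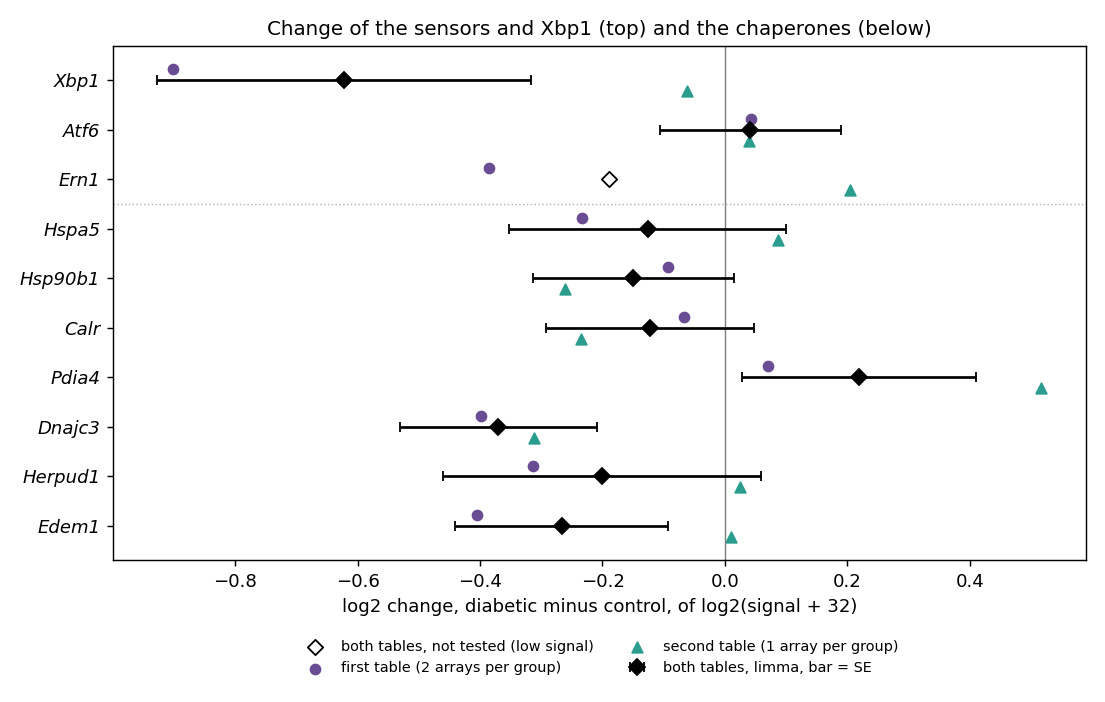
Log2 change (diabetic minus control) of the 10 genes over both tables (diamonds, with the limma standard error as bars, n = 3 per group) and within the first table (circles, 2 arrays per group) and the second table (triangles, 1 array per group). Xbp1 lies at -0.62 with -0.90 and -0.06 in the tables, and Dnajc3 at -0.37 with values of -0.40 and -0.31.

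Set against each other, the sensors with Xbp1 and the chaperones had medians of -0.19 over 3 genes and -0.15 over 7, beside 0.01 over all genes tested. The first of these is the value of Ern1, the untested gene of low signal, and over the 2 tested genes, Xbp1 and Atf6, the median was -0.29. The difference between these groups was not tested. The medians cover different spreads: the sensors with Xbp1 ran from -0.62 to 0.04, and the chaperones from -0.37 to 0.22. In all, 8 of the 10 genes had a change below 0 (7 of the 9 tested), where 47.8% of all genes tested did. Counts over the 10 genes, here and for single arrays below, include the untested Ern1. Changes within the first table were below 0 for 8 of 10 genes, against 50.0% of all genes, and those within the second for 4 of 10, against 46.4%. Tested by an interaction of table and group in limma, the change differed between the tables for 0 of the 9 genes at an adjusted p of 0.05 (0% of all genes tested) and for 0 at an unadjusted p under 0.05 (6.80% of all). The smallest adjusted p of that interaction among them was 0.824, from a fit with 2 residual degrees of freedom.

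Diabetic replicate 2 gave the lowest medians. It lay below every control of its table for 6 of the 10 genes (39.2% of all genes tested) and above every control for 0 (35.2%). Diabetic replicate 1 lay below for 5 (33.4%) and above for 2 (35.9%), and diabetic replicate 3, set against 1 control, below for 4 (46.4%) and above for 6 (53.6%). Median differences from the control mean of the same table were -0.18, -0.45 and 0.01 for the chaperones on diabetic replicates 1 to 3. For the sensors with Xbp1 they were -0.17, -0.60 and 0.04, beside 0.01, -0.02 and 0.03 over all genes tested. Without diabetic replicate 2 the median over the chaperones was -0.09 and over the sensors with Xbp1 -0.01. With that array left out, 7 of the 10 genes were below 0, as were 3943 of the 8627 genes tested. Dnajc3 and Xbp1 were both at -0.26, and the untested Ern1 was at -0.01.

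**Figure D4:**
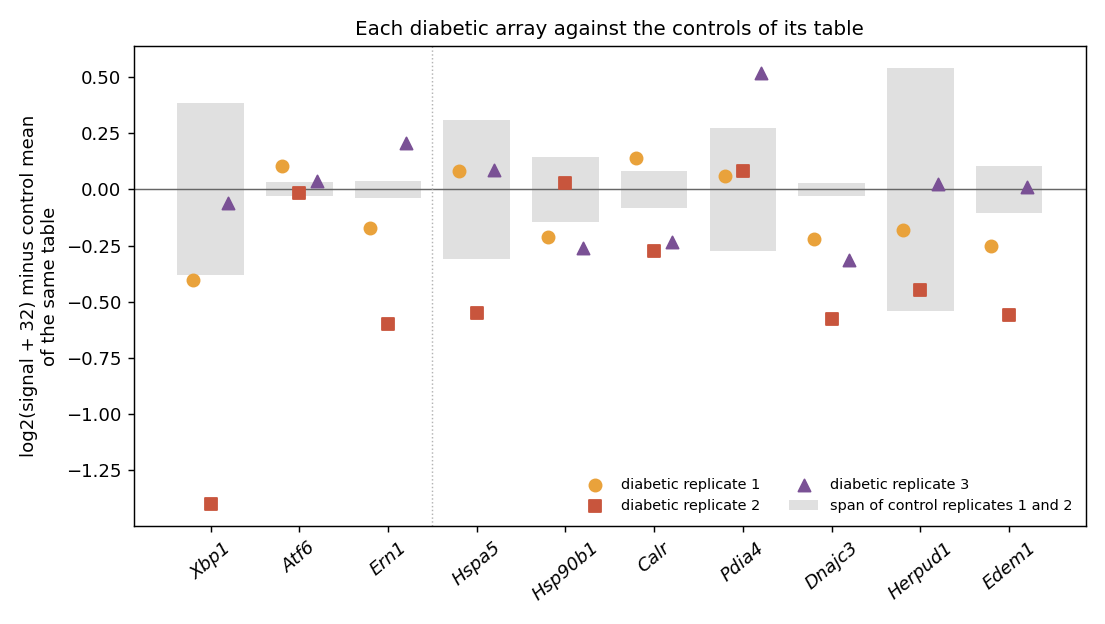
Log2(signal + 32) of each diabetic array minus the control mean of its table, for the 10 genes, with grey bars spanning control replicates 1 and 2 (the second table has 1 control, at 0). Diabetic replicate 2 (squares) lies lowest for Xbp1 at -1.40 and below the grey bar for 6 genes. Dnajc3 lies below the controls on all 3 diabetic arrays, as does Xbp1 by small margins on diabetic replicates 1 and 3. This held for 10.6% of all genes tested.

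Of other measures, some stood out on single arrays and some did not. Diabetic replicate 2 had a signal of 2202 for the cytosolic heat shock gene Hspa1b, and the other arrays 109 to 265, and the 18S ribosomal RNA control probe set gave 7894 on control replicate 1 and 101 to 265 elsewhere. The 3′ over 5′ signal ratio of Gapdh, a measure of RNA integrity, was 0.802 on diabetic replicate 2 and 0.809 to 0.815 on the other arrays of its table. The 10 brain markers all passed the filter on low signal. Their changes were below 0 for 7 and above for 3, with a median of -0.17 beside -0.17 for the 10 genes, and their summed signals were 25053 to 28505 in the control and 25424 to 30038 in the diabetic group. Mesenchyme and meninges markers had changes below 0 for 8 of 8 genes (summed signal 13151 to 15502 in controls, 10990 to 13607 in the diabetic group). Macrophage markers did for 4 of 5 (782 to 1134, and 617 to 837). Only 3 of these 5 passed the filter on low signal, and Aif1 was under 100 on every array. Choroid plexus and roof plate markers were below 0 for 3 of 5, their sum, of which Ttr is a part, being 3834 to 4658 in controls and 2191 to 3117 in the diabetic group. Erythroid markers, of which 5 of 6 passed the filter, were above 0 for 5 of 6 (42035 to 51187, and 48671 to 56685). Endothelial markers were split 3 to 3 (1421 to 2555, and 1842 to 2264). Surface epithelium markers were above 0 for 3 of 5 (1456 to 1942, and 1294 to 2288). The part of these measures in the values of the 10 genes was not tested.

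Other genes of the pathway were taken from 4 lists and, like the 10 genes, none passed the adjustment in limma. Of 77 tested genes, 33 had a change above 0 and 44 below, with a median of -0.05, and 4 (5.19%) had an unadjusted p under 0.05, against 7.64% of all genes. The list of the PERK arm and other sensors had 6 of 12 genes above 0. Its highest was Trib3, a pseudokinase induced by stress through ATF4, with signals of 94.7, 140 and 57.6 in control brains and 162, 251 and 186 in diabetic brains. Each diabetic array lay above the controls of its table, as for 11.3% of all genes, and the log2 change was 0.87 ± 0.22 (SE, n = 3 per group). The other Trib3 probe set, with a mean signal of 110, had 1.67. Trib3 was weakly detected, and on its main probe set control replicates 1 and 3 were under 100. Its mean of 149 over all arrays, which passed the filter of 100, includes the higher diabetic signals. Its place among the tested genes thus rests in part on the group where it is high. The lowest of the list was Creb3l2, a transcription factor held in the ER membrane, with -0.30 ± 0.15, though its other probe set had 0.06.

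The ER folding list had 10 of 29 genes above 0 and 19 below, with a median of -0.07 and 0 genes at an unadjusted p under 0.05 in limma. Ero1a, the oxidase that drives disulfide formation, was highest with 0.61 ± 0.38 (SE, n = 3 per group). Its signal was 2441 on diabetic replicate 2 and 596 to 766 on the other arrays, and without that array its change was 0.04. Dnajb9, a BiP co-chaperone and a known XBP1 target, gave 919, 896 and 612 in control brains and 855, 529 and 528 in diabetic brains. Each diabetic array lay below its controls, which held for 10.6% of all genes tested. The change was -0.34 ± 0.19, or -0.13 without diabetic replicate 2.

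In the list of ER-associated degradation 11 of 19 genes were above 0 and 8 below. Selenos, a selenoprotein of the retrotranslocation complex, had -0.44 ± 0.18 (SE, n = 3 per group), with signals of 1422, 1107 and 1114 in control brains and 970, 738 and 958 in diabetic brains, which all lay lower. Its other probe sets had -0.73 and -0.16. Nploc4, a cofactor of the extracting ATPase p97, had 0.38 ± 0.17. In the list of ER translocation, the entry of new proteins into the ER, 6 of 17 genes were above 0 and 11 below. For 5 of these 17 genes every diabetic array lay below the controls of its table, and for 0 above. Over all genes tested the shares were 10.6% below and 11.3% above. In the lists of the PERK arm, of folding and of degradation the counts of such genes were 2 below and 2 above, 2 and 2, and 3 and 3. This made 12 below and 7 above over all 77 genes. Sec11c, of the signal peptidase, had -0.41 ± 0.17, and Sec62, a translocon partner, -0.35 ± 0.16. Sec61a1, the channel itself, had -0.28 ± 0.18, but 0.58, 0.31, 0.18, -0.04 and -0.01 on its other probe sets.

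**Figure D5:**
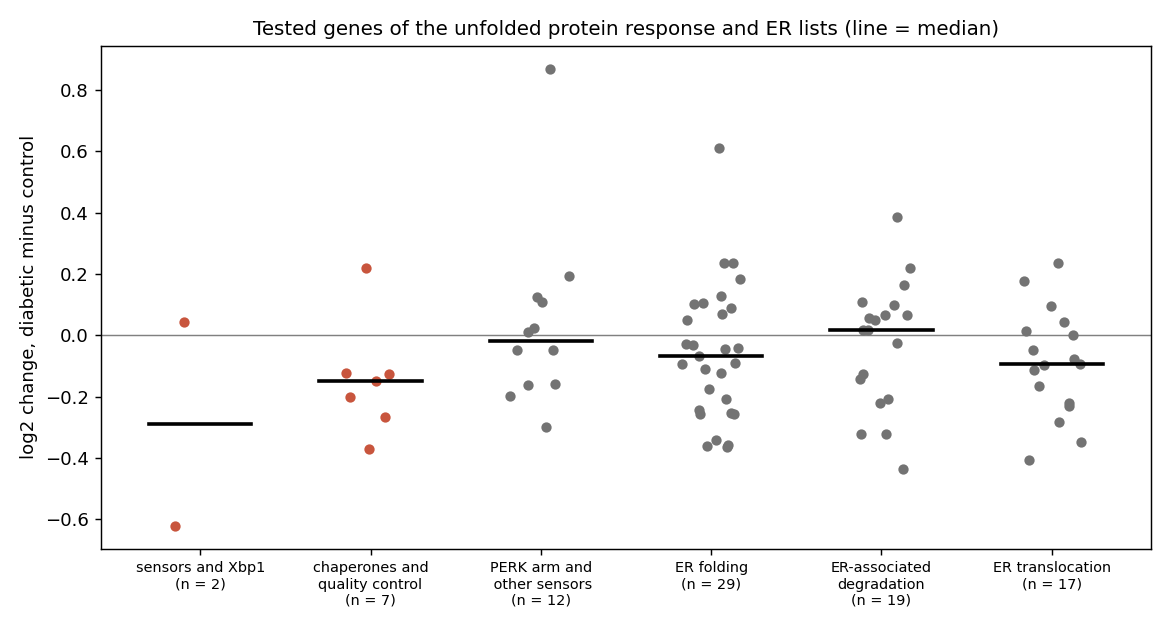
Log2 change (diabetic minus control) of every tested gene among the sensors with Xbp1 and the chaperones (red) and in 4 further lists of the pathway (grey), each point 1 gene and each line the median. The medians of the further lists lie between -0.09 and 0.02, with Trib3 at 0.87 and Ero1a at 0.61 as the highest points.

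The promoter sites were also set beside the changes of all tested genes. Of 7000 tested genes with a promoter window, 13 held the ER stress element, and 8 of these had a change below 0, where 47.1% of the 7000 did. Their median was -0.07, against 0.02. Besides Hspa5, Hsp90b1, Calr and Dnajc3 they were Creld2, Pdia6, Ero1b, Syvn1, Derl3, Canx, Alg12, Adcy3 and Pan2, of which the first 7 act in ER folding, degradation or glycosylation. These 9 split into 4 below and 5 above 0, from -0.25 for Creld2 to 0.18 for Canx.

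The tested genes whose values over the 6 arrays were most like those of Xbp1 were Osr1, Spock1, Srpk2, Gdf10 and Fam13b. Likeness was the root mean square difference of log2 values centred on the table mean, which was 0.117 for Osr1 and 0.144 for Fam13b, beside a median of 0.537 over all genes tested. Fam13b gave 1065, 873 and 793 in control brains and 714, 340 and 708 in diabetic brains, so that control replicate 1 was high and diabetic replicate 2 low, as for Xbp1. Most like Hspa5 were Cklf, Add2, Csf1, Ppt1 and Cyth2, with differences of 0.051 to 0.074 beside a median of 0.318. Within the 10 genes, Edem1 at 0.327 was nearest to Xbp1, and Ern1 at 0.183 was nearest to Hspa5. Dnajc3 and Edem1 were the nearest pair, at 0.103.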

How the data were processed

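Both deposited tables hold probe set intensity on a linear scale with a column for every array, which the authors made with the Affymetrix software GCOS per the submitters' processing notes. For its version, settings and background step, nothing is given in the sources used here. Each array was set to a 2% trimmed mean of 500, a shift of at most 0.0363%, before log2(signal + 32). Printed signals are the deposited ones. Of 20380 probe sets annotated with 1 gene, the one with the highest mean log2 signal stood for its gene. The 8627 genes averaging a signal of 100 or more were tested in limma 3.58.1 under R 4.3.3 (two-sided, moderated by eBayes, Benjamini-Hochberg over all of them). The table was a block, and the fit was tested on simulated data. Precision rests on the number of arrays (median standard error 0.17). The text describes all 10 genes. From each pathway list it names genes among the 3 of smallest p, the highest and the lowest, and it names the 5 genes most like Xbp1 and Hspa5. The genes, lists, rules and tests were chosen with earlier results of these data known. Alternatives were other pseudocounts, normalization, filters, blocks, probe set choices, array weights and left-out arrays. Hspa1b, Aif1 and Ttr, and the other genes with an ER stress element, were named after their values were seen.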

Additional observations from a re-analysis of the deposited data

How the results depend on the processing

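Under every alternative that gave a test, 0 of the 10 genes passed at an adjusted p of 0.05 in limma, the smallest adjusted p among them running from 0.503 (first table only) to 0.9997 (no table block). The interaction of table and group gave 0 under its 4 alternatives. As single arrays were left out, the chaperone median ran from -0.26 to -0.09 and the median of the sensors with Xbp1 from -0.39 to -0.01. In the second table alone these medians turned to 0.0094 and 0.039, and with all probe sets averaged the latter turned to 0.0086. These moves lay within 1 SD of the medians on the 3 diabetic arrays (0.229 and 0.325). That SD contains the table difference and the low diabetic replicate 2, so it cannot show that the medians were stable. The untested Ern1 turned to 0.20 in the second table alone and to 0.0086 with all probe sets averaged. Signs also turned in the second table alone for Hspa5 (0.086), Herpud1 (0.025) and Edem1 (0.0094), and with array weights for Calr (0.011) and Herpud1 (0.014). Without single arrays Hspa5 ran from -0.28 to 0.084 and Herpud1 from -0.48 to 0.14. Without both control replicate 1 and diabetic replicate 2, a choice made after seeing the data, Herpud1 was 0.19, the medians were -0.07 and -0.0024, and 2 of all 8627 genes passed, against 0 under the other alternatives with a test. The cause was not tested. Xbp1, Dnajc3, Hsp90b1, Atf6 and Pdia4 kept their sign under all alternatives run. Xbp1 came near 0, at -0.04 without both control replicate 1 and diabetic replicate 2 and at -0.06 in the second table alone. With the replicate number as a block the chaperone median was -0.15 and the smallest adjusted p 0.617. Same-numbered arrays deviated together at 0.430 to 0.744 across genes, values that contain the table difference, and at -0.0091 within the first table. Array signal limits what can be said of Ern1.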
